A study of Mus musculus with 3 samples.

Results

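The surfactant and lamellar body genes were examined across lung cells after thoracic irradiation. The set is a list of 10 genes, of the 22954 genes measured in each library. They are the surfactant protein genes Sftpc, Sftpa1, Sftpb and Sftpd, the lamellar body genes Abca3, Lamp3 and Napsa, the phospholipid enzyme gene Lpcat1, the phosphate transporter gene Slc34a2 and the chemokine gene Cxcl15. All 10 were found in the tables, and each was followed in cells gated by marker genes that are none of the 10.

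The 3 conditions were compared with 1 library each, from the lung of 1 female C57BL6/J mouse that had both lungs exposed to 13 Gy and was killed 5 months later. CONV stands for irradiation at conventional dose rate and FLASH for irradiation at ultra-high dose rate. CONV AsiDNA stands for conventional irradiation of a mouse given AsiDNA, a short DNA molecule that engages DNA repair signalling, at 100 mg/kg on each of 2 earlier days and at 200 mg/kg on the irradiation day. All 3 animals were wild type and all were irradiated, and unirradiated lungs were not analysed here. No test could be made from 1 mouse per condition, so that each difference between libraries is a difference between 3 mice, and each interval covers the sampling of cells only.

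Pulmonary surfactant is a film of phospholipid and protein that lowers surface tension at the wall of the alveolus. Alveolar type 2 (AT2) cells make its lipids, pack them with the hydrophobic proteins SP-B and SP-C into lysosome-related organelles named lamellar bodies, and release them into the alveolar space. The hydrophilic proteins SP-A and SP-D are collectins, which bind microbes and take part in lung defence, and club cells of the small airways are a further known source of SP-A, SP-B and SP-D.

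In the GRCm38 annotation the 10 genes are protein coding and lie on 7 chromosomes. Sftpa1 (chr14:41131782-41136452, plus strand) and Sftpd (chr14:41172214-41185149, minus strand) are close to each other, and Sftpc (chr14:70520949-70524081, minus strand) is on the same chromosome. Sftpb lies at chr6:72304610-72314371 and Cxcl15 at chr5:90794534-90803067, both on the plus strand. Promoter sequences from RefSeq (GRCm38.p6) matched 7 of the 10 genes, and Sftpc, Sftpd and Napsa had no entry. The 250 bases before the RefSeq start of Sftpb (chr6:72304360-72304609), Sftpa1 (chr14:41131538-41131787) and Cxcl15 (chr5:90794284-90794533), all on the plus strand, are shown because these genes were read in both AT2 and club cells. Abca3 was too, but its window, which has 0 matches to the motif, runs past the annotated start and is not shown. Windows end at the RefSeq start, which for Sftpa1 lies 6 bases inside the gene as annotated above. Capitals mark CTCAAG, a form of the core that the lung factor NKX2-1 is known to bind.
Sftpb: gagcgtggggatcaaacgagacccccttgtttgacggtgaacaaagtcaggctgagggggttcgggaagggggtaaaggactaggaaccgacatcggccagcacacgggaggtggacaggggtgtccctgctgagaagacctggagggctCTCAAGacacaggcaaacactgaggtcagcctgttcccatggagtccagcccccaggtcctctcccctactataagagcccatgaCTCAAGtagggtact
Sftpa1: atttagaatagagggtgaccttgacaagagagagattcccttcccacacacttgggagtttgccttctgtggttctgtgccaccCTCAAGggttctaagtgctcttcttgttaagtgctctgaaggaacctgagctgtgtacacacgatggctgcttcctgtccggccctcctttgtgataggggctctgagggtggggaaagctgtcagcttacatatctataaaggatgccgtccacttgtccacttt
Cxcl15: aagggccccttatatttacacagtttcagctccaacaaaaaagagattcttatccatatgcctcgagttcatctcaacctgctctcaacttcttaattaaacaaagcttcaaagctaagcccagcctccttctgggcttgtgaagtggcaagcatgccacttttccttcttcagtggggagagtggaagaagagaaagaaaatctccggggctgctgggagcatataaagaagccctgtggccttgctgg
CTCAAG, searched on both strands (CTTGAG on the other), starts at -100 and -15 in the Sftpb promoter and at -166 in that of Sftpa1, counted from the RefSeq start. It was found in 2 of the 7 promoters of the set and in 13.3% of the 32851 promoters of the table. The C/EBP motif TTGCGCAA was found in 1 of the 7, that of Slc34a2, against 0.164% of all. The Slc34a2 window (chr5:53049103-53049352) ends at a RefSeq start that lies well inside the annotated gene (chr5:53038081-53071664). Both motifs were chosen after the expression values were known, and a match describes letters in this window only.

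Cells were gated to the class of which they held the largest share of markers, with at least 3 markers above 0. The AT2 gate took 290 of 6371 cells in CONV (4.55%, exact 95% interval 4.05 to 5.09), compared with 324 of 6981 in CONV AsiDNA (4.64%, 4.16 to 5.16), while FLASH had 381 of 6267 (6.08%, 5.50 to 6.70). Of the AT2-gated cells 252, 280 and 320 also held at least 3 alveolar type 1 (AT1) markers. With all cells holding at least 3 markers of a second class left out, AT2 cells were 0.677%, 0.734% and 1.01%. The AT2 markers other than Bex2 were above 0 in 85.9% to 98.6% of AT2-gated cells. Bex2 was above 0 in 3.10% in CONV, against 39.5% in CONV AsiDNA and 53.0% in FLASH. The libraries had a median of 3450 to 3678 adjusted counts and 1235.5 to 1339 genes above 0 per cell, and pairs of libraries shared 9 to 17 cell barcodes. Each whole number behind a deposited value is called an adjusted count, since depth and background appear to have been adjusted before deposit. The sources used here do not state any such steps. Levels are given as adjusted counts per 1000000 of the class (adjusted CPM), with no scaling to gene length. Values departed from plain counts in single libraries. In CONV, mt-Co3 and Ftl1, which nearly every cell uses, were listed at 0 in all 290 AT2 cells. In FLASH, Gm42418, a gene with ribosomal RNA sequence, was above 0 in 0.525% of AT2 cells, against 87.6% in CONV and 92.0% in CONV AsiDNA. A gene at 0 is therefore reported as listed at 0, with no limit. Of the club markers 6, 7 and 8 of 10 were at 0 in AT2 cells, with a summed level of 2119, 2589 and 2519 adjusted CPM. Of the AT1 markers 2, 3 and 5 of 10 were at 0, with a summed level of 2851, 2518 and 2225, and interstitial macrophage markers summed to 0, 211 and 571. All markers of ciliated, B, T and endothelial cells were at 0.

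The set was among the most abundant RNA of AT2 cells. Together the 10 genes took 25.5% of the adjusted counts of AT2 cells in CONV, compared with 27.0% in CONV AsiDNA and 28.6% in FLASH. Per cell, the share was 25.6% ± 7.81 (SD over 290 cells) in CONV, 27.1% ± 6.96 (324 cells) in CONV AsiDNA and 28.8% ± 6.88 (381 cells) in FLASH. Without Sftpc the share was 8.07%, 8.48% and 8.35%. The order of CONV, CONV AsiDNA and FLASH in the total thus followed Sftpc, whereas the other genes together were lowest in CONV and highest in CONV AsiDNA.

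Sftpc, which encodes SP-C, was the most abundant gene of AT2 cells in every library. Its level was 174761 adjusted CPM in CONV, against 185707 in CONV AsiDNA and 202794 in FLASH. The median AT2 cell held 879.5, 907.5 and 1011 adjusted counts of it, and the middle 50% of cells spanned 611.25 to 1099, 739.5 to 1090.5 and 837 to 1148. The cells overlapped widely between libraries, with the lower quartile lowest in CONV. Only 1 CONV cell and 2 CONV AsiDNA cells of the AT2 gate were at 0, and the lowest FLASH cell held 52.

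Sftpa1, which encodes SP-A, had rank 3 in every library, with 30760 adjusted CPM in CONV, compared with 31963 in CONV AsiDNA and 30660 in FLASH. Sftpb encodes SP-B, without which lamellar bodies do not form properly, and was at 14146, 14176 and 14567. Both genes were at nearly the same level in the 3 libraries. Their log2 ratios between pairs of libraries lay between -0.06 and 0.06.

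Sftpd, which encodes SP-D, was the surfactant protein gene with the largest ratios of CONV to the other libraries. It was at 11654 adjusted CPM in CONV, against 8574 in CONV AsiDNA and 8083 in FLASH. The log2 ratio of CONV was 0.44 to CONV AsiDNA and 0.53 to FLASH, both short of 1.5-fold. In these pairs 17.9% and 20.2% of the 8082 genes with a sum of at least 20 in AT2 cells passed that fold. Genes at 1000 adjusted CPM or more had log2 ratios of median size 0.26 and 0.35. The median cell held 53, 38 and 35 adjusted counts, so that the median CONV cell lay at the upper quartile of CONV AsiDNA (53) and above that of FLASH (49). Every AT2 cell in each of the 3 libraries was above 0 for this gene. In the 37, 42 and 52 AT2 cells with under 3 markers of any other class, the log2 ratio was 0.10 to CONV AsiDNA and 0.57 to FLASH.

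Abca3, the transporter that moves phospholipid into the lamellar body, was the lowest of the set at 1252 adjusted CPM in CONV, compared with 1147 in CONV AsiDNA and 1182 in FLASH. Lamp3, a membrane protein of lamellar bodies, was at 2858, 3731 and 3538, with log2 ratios of CONV of -0.38 and -0.31. Napsa, an aspartic protease that helps to process SP-B, was at 2802, 2882 and 3164. In all AT2-gated cells, Lamp3 was of these lamellar body genes the one lower in CONV than in both other libraries by the widest margin. The median cell held 13 adjusted counts of Lamp3 in CONV against 17.5 and 16. With cells that held markers of a second class left out, the log2 ratios of Lamp3 were -0.21 and -0.12. Over the alternatives those of Napsa ranged from -0.38 to -0.02 and from -0.29 to -0.17, so the margins of Lamp3 and Napsa overlapped.

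Lpcat1, an acyltransferase that makes the dipalmitoyl lecithin of surfactant, was at 2104 adjusted CPM in CONV, against 1740 in CONV AsiDNA and 1771 in FLASH. Its log2 ratios were 0.27 and 0.25, with CONV the highest library. Slc34a2, a sodium-dependent phosphate transporter of the AT2 membrane, was the most even gene of the set at 7581, 7511 and 7598.

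Cxcl15, also named lungkine, is a chemokine that attracts neutrophils and is made by lung epithelium. It was at 7539 adjusted CPM in CONV, compared with 13059 in CONV AsiDNA and 12946 in FLASH, a log2 ratio of CONV of -0.79 and -0.78. The median cell held 30 adjusted counts in CONV, against 58 in CONV AsiDNA and 59 in FLASH, with quartiles of 17 and 48, 39 and 85, and 42 and 78. The median CONV cell was thus below the lower quartile of both other libraries, although the highest cells were alike (174, 177 and 177). The relative spread was also widest in CONV, with a coefficient of variation of 0.75 against 0.52 and 0.46. In 99.1% to 99.7% of the AT2 cells of the 3 libraries the gene was above 0.

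**Figure D1:**
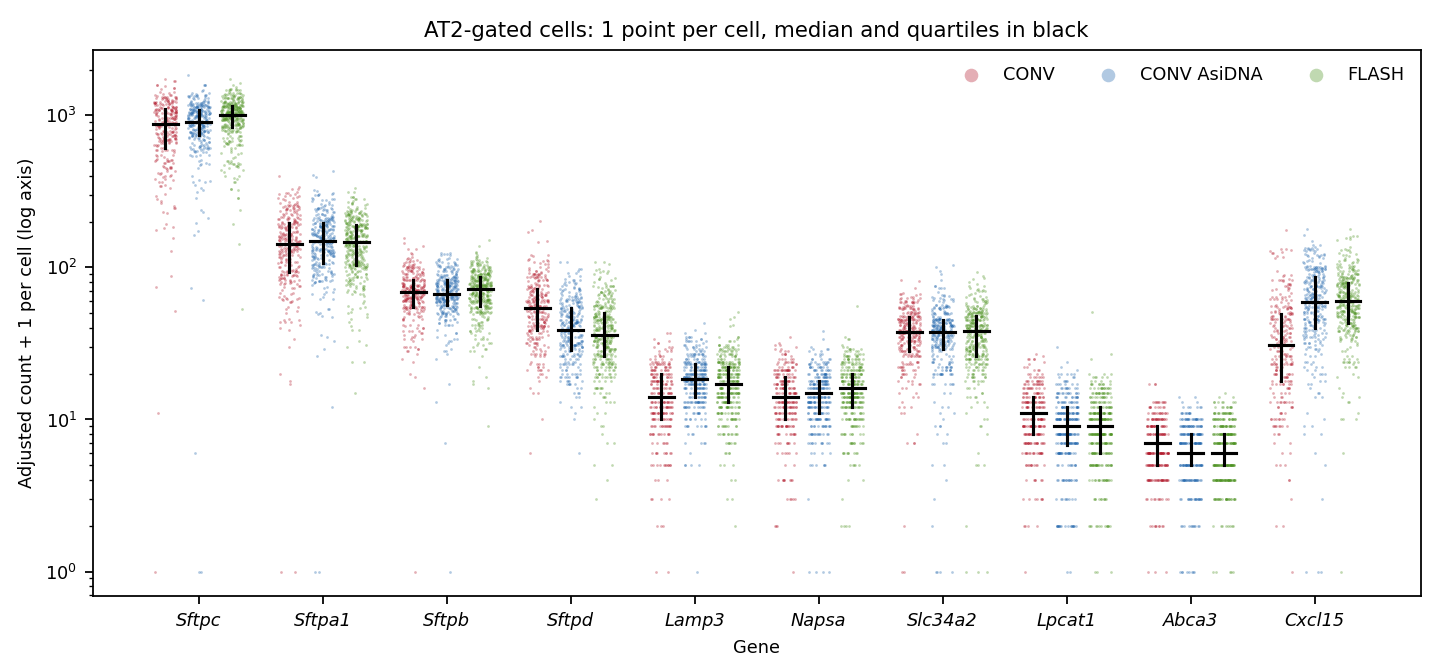
Adjusted counts plus 1 of the 10 genes in each AT2-gated cell, on a log axis, by library (290 CONV, 324 CONV AsiDNA and 381 FLASH cells), with the median as a horizontal and the quartiles as a vertical black bar. Cxcl15 sits lower in CONV (median 30 against 58 and 59), Sftpd sits higher (53 against 38 and 35), and the other genes overlap more.

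Among the 10 genes, 0 were past a 2-fold difference in any pair of libraries. Over the 8082 genes that reached a sum of 20 in AT2 cells, 4.81% were past that fold between CONV and CONV AsiDNA, 5.68% between CONV and FLASH, and 1.1% between CONV AsiDNA and FLASH. At 1.5-fold, a threshold added after the values were seen, Cxcl15 was the 1 gene of 10 past it in each comparison with CONV, against 17.9% and 20.2% of all genes, and 0 of 10 were past it between CONV AsiDNA and FLASH, against 7.47%. Of all genes, 3.74% were lower in CONV than in both other libraries by that fold, and 8.96% of the 67 genes at 1000 adjusted CPM or more were, so that the 1 gene of 10 does not stand out from its background. Both comparisons share the CONV mouse.

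The set did not move as a block. In each of the 3 pairs of libraries 4 of the 10 genes were above 0 and 6 below. For CONV over CONV AsiDNA the median of the 10 log2 ratios was -0.02, against 0.02 over all 8082 genes, and -0.02 for CONV over FLASH, against 0.12. Between CONV AsiDNA and FLASH the 10 genes differed little in all AT2-gated cells, with log2 ratios from -0.13 to 0.09. Under the alternatives Sftpd reached 0.46. The median size of the 10 log2 ratios was 0.05, against 0.21 over all genes tested. Genes at 1000 adjusted CPM or more had a median size of 0.13 in that pair.

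**Figure D2:**
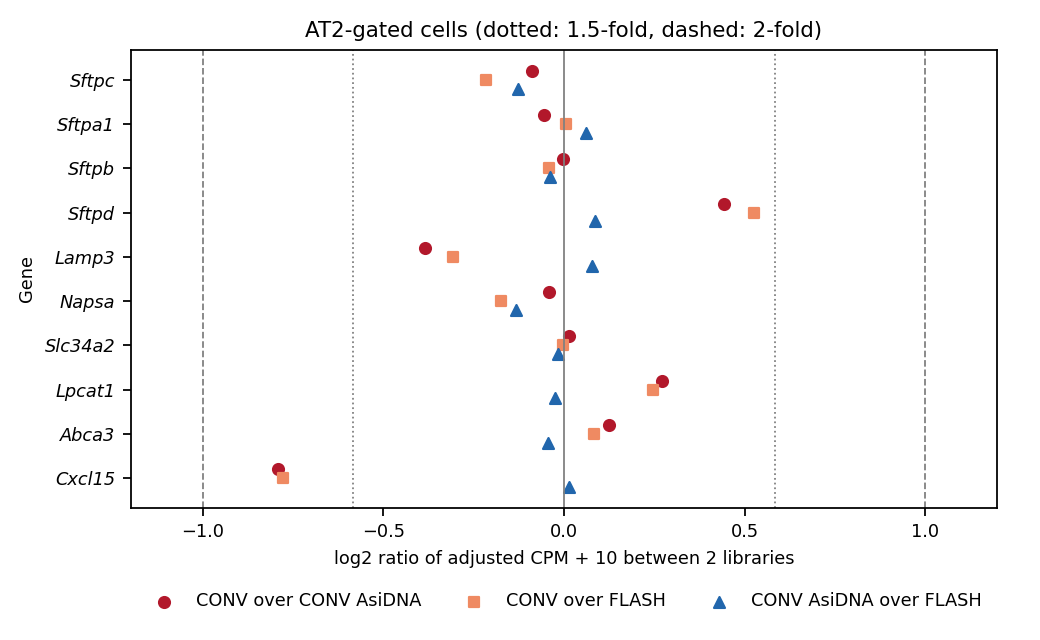
Log2 ratio of adjusted CPM plus 10 in AT2-gated cells for each gene, for CONV over CONV AsiDNA (circles), CONV over FLASH (squares) and CONV AsiDNA over FLASH (triangles), with dotted lines at 1.5-fold and dashed lines at 2-fold. Cxcl15 (-0.79 and -0.78) and Lamp3 lie to the left and Sftpd (0.44 and 0.53) and Lpcat1 to the right in the comparisons with CONV, while all triangles lie near 0.

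Across the AT2 cells of a library most pairs of the genes varied in the same direction, to unequal degrees. Of the 45 pairs of genes, 39 had a correlation above 0 in all 3 libraries, with a median r of 0.29 in CONV (290 cells), compared with 0.34 in CONV AsiDNA (324 cells) and 0.21 in FLASH (381 cells). These values describe cells that share a mouse, a library and any adjustment of depth, and low counts weaken them. The collectins Sftpa1 and Sftpd had r of 0.49, 0.43 and 0.44 with each other. Sftpd and Sftpc had r of -0.0005, 0.11 and 0.09. Once values were scaled to the cell's counts of genes outside the set, r was 0.16, 0.22 and 0.25. That scaling divides both genes by the same sum, which can itself raise r.

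Sftpc and Sftpb, which encode the hydrophobic proteins packed into lamellar bodies, had r of 0.54, 0.52 and 0.38. Slc34a2 had r of 0.46, 0.45 and 0.53 with Lpcat1 and of 0.35, 0.59 and 0.47 with Abca3, and Lamp3 with Abca3 had 0.43, 0.51 and 0.45. Sftpb was linked about as closely to Slc34a2, with r of 0.39, 0.40 and 0.39, so that no separate groups of genes can be drawn from these pairs, while Sftpd and Slc34a2 had 0.12, 0.02 and -0.11. Cxcl15 had its highest correlation in CONV AsiDNA, with r of 0.57 with both Sftpb and Lamp3. In CONV these were 0.42 and 0.41 and in FLASH 0.31 and 0.32. As Sftpc alone takes a large part of a cell's counts, the scaled values were taken for all pairs. After scaling, 42 of the 45 pairs were above 0 in all libraries. Scaling divides both genes of a pair by the same sum, which can itself raise r. The scaled values are therefore not read as further evidence that the genes vary together.

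**Figure D3:**
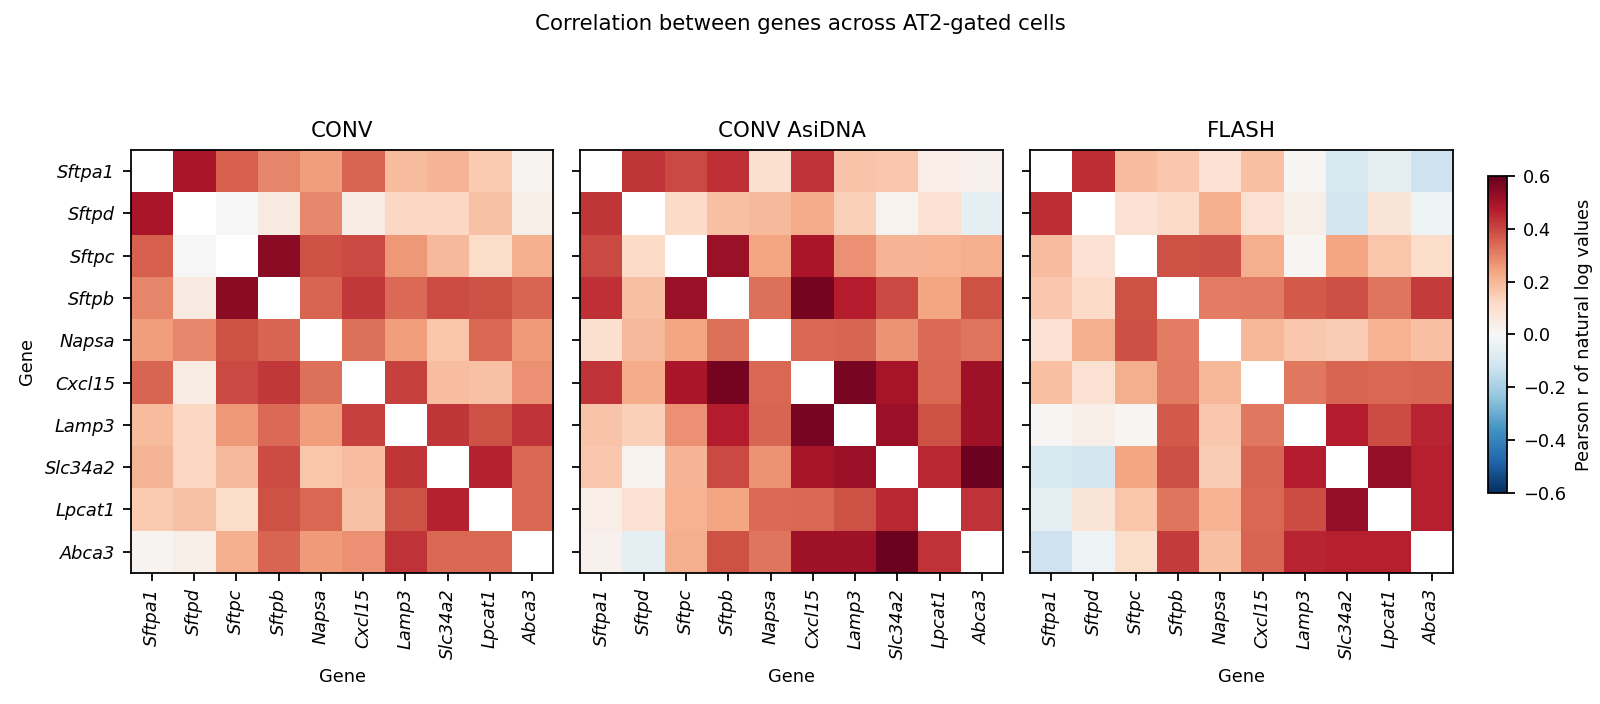
Pearson r of the natural log values between each pair of the 10 genes across AT2-gated cells, by library, from -0.6 (blue) to 0.6 (red), with the diagonal left white. Sftpa1 and Sftpd form a red pair (0.49, 0.43 and 0.44), and Lamp3, Slc34a2, Lpcat1 and Abca3 are red with each other in all 3 libraries. Sftpb is also red with Lamp3, Slc34a2, Lpcat1 and Abca3 in all 3 libraries, so that no separate groups are drawn.

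Among all cells, the set was concentrated in AT2 cells. AT2-gated cells held 99.7% to 100.0% of the adjusted counts of Sftpc, 99.0% to 99.8% of those of Lamp3 and 99.5% to 99.9% of those of Slc34a2. For Sftpb the share was 95.3% in CONV, against 90.9% in CONV AsiDNA and 97.8% in FLASH, and for Abca3 it was 81.6%, 79.7% and 91.1%. Napsa was the least restricted, with 57.6%, 52.8% and 66.4%. The AT2 gate itself did not use the 10 genes, but marker genes of AT2 cells are chosen for the same pattern.

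**Figure D4:**
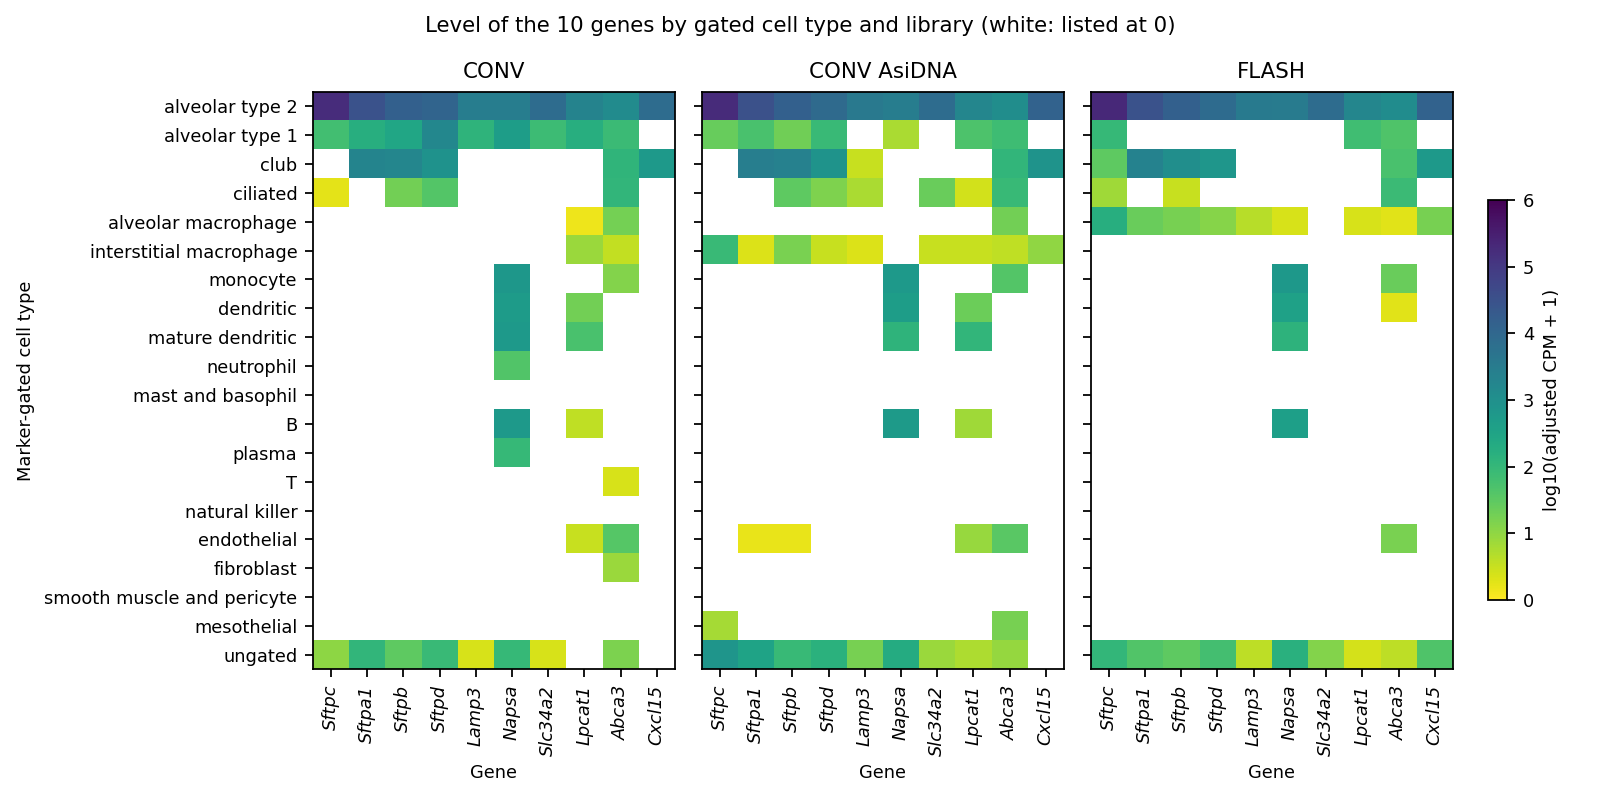
Level of the 10 genes, as log10 of adjusted CPM plus 1, by gated cell type (lines) and library (panels), with white where a gene was listed at 0. All 10 genes are highest in AT2 cells, club cells hold Sftpa1, Sftpb, Sftpd, Abca3 and Cxcl15, and Napsa extends to monocytes, dendritic cells and B cells.

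Club cells, the secretory cells of the airway, read part of the set in every library, while the rest was mostly listed at 0. The gate took 90 such cells in CONV, compared with 170 in CONV AsiDNA and 103 in FLASH. Sftpb was above 0 in 80.0% of them in CONV (exact 95% interval 70.2 to 87.7), against 85.3% in CONV AsiDNA (79.1 to 90.3), while FLASH had 57.3% (47.2 to 67.0), at 1765, 2325 and 1096 adjusted CPM. FLASH was the lowest library, and its interval did not meet those of the others. Sftpa1 was above 0 in 52.2%, 57.1% and 38.8% and Sftpd in 70.0%, 74.1% and 55.3%, and here the FLASH interval met that of CONV for both genes. The level of Sftpa1 was 1999, 2744 and 2148 adjusted CPM, with CONV lowest, and that of Sftpd 864, 829 and 709.

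Cxcl15 was above 0 in 48.9%, 54.1% and 42.7% of club cells, at 554, 838 and 588 adjusted CPM, and Abca3 in 34.4%, 37.1% and 14.6%. In contrast, Napsa, Slc34a2 and Lpcat1 were listed at 0 in all club cells of the 3 libraries, and Lamp3 was above 0 in 1 CONV AsiDNA cell. Sftpc was listed at 0 in the club cells of CONV and CONV AsiDNA and was above 0 in 15 of 103 FLASH cells at 30.4 adjusted CPM, far under its AT2 level of 202794. In ciliated cells, which are not a known source, Sftpb was above 0 in 0.333%, 2.12% and 0.645%, at median totals of 4526, 4495 and 4485 adjusted counts per cell.

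The levels in club cells were lower than in AT2 cells. AT2 cells exceeded club cells 15.4-fold, 11.6-fold and 14.3-fold for Sftpa1, 8.01-fold, 6.10-fold and 13.3-fold for Sftpb and 13.5-fold, 10.3-fold and 11.4-fold for Sftpd in CONV, CONV AsiDNA and FLASH. All of Sftpa1, Sftpb and Sftpd were above 0 in 31.1%, 45.9% and 22.3% of club cells. None of these genes was above 0 in 24 of 103 club cells in FLASH, whereas this held for 4 of 90 in CONV and 6 of 170 in CONV AsiDNA. With each cell thinned to 1000 adjusted counts, the expected share of club cells above 0 for Sftpb was 60.3%, 72.9% and 40.8%, in the same order. Leaving out club cells with at least 3 markers of a second class kept 44, 107 and 68 cells. Sftpb was then above 0 in 72.7% (57.2 to 85.0), 80.4% (71.6 to 87.4) and 55.9% (43.3 to 67.9), and the FLASH interval met that of CONV. Sftpa1 was above 0 in 47.7%, 52.3% and 45.6% and Sftpd in 54.5%, 63.6% and 52.9%, which brought FLASH and CONV closer for both genes. Cxcl15 was above 0 in 27.3% (12 of 44 cells, with an upper limit of 42.8), 49.5% (39.7 to 59.4) and 47.1% (34.8 to 59.6), with CONV lowest and all intervals overlapping. The median adjusted counts per club cell were 5507.5, 5307.5 and 5305.

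Alveolar type 1 (AT1) cells, the thin cells of gas exchange, showed unlike orders of the libraries from gene to gene. Sftpd was above 0 in 36 of 115 AT1 cells in CONV (31.3%, exact 95% interval 23.0 to 40.6), compared with 2 of 65 in CONV AsiDNA (3.08%) and 0 of 126 in FLASH, at 1706, 85.6 and 0 adjusted CPM. Napsa was above 0 in 35, 1 and 0 of these cells and Lamp3 in 15, 0 and 0. CONV was the highest library for these 3 genes, and the values of 0 carry no limit. Lpcat1 was above 0 in 20.9%, 12.3% and 10.3% of AT1 cells and Abca3 in 13.0%, 16.9% and 8.73%, with CONV AsiDNA highest for Abca3. Sftpc was above 0 in 19.1%, 7.69% and 27.0% of AT1 cells at 65.8, 23.8 and 93.4 adjusted CPM, with 1 adjusted count in each such cell. In ciliated cells, which are not a known source, Sftpc was above 0 in 0.333%, 0% and 2.58%, also at 1 adjusted count. No order of the libraries is therefore read from Sftpc in AT1 cells. Cxcl15 was listed at 0 in all AT1 cells.

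The 36 CONV cells with Sftpd differed from the other 79 AT1-gated cells of that library also in genes outside the set. The AT1 gate markers read here were unequal. Hopx, a transcription regulator, was at 1503 adjusted CPM in them and 5223 in the others, Igfbp2 at 105 and 2314 and Spock2 at 154 and 1530, whereas Ager was at 8316 and 10806 and Aqp5 at 1463 and 1597. Of the AT2 gate markers Sfta2 was at 647 and 61.8, Etv5 at 72.7 and 0 and Lgi3 at 0 in both, and the club gene Scgb1a1 at 1697 and 0. Their Sftpc level was only 32.3 adjusted CPM against 85.5, while Sftpa1 was at 469 and 0. Sftpb was at 606 and 90.3, Napsa at 1083 and 99.8 and Lamp3 at 323 and 4.75. Slc34a2 was at 178 and 19.0, Lpcat1 at 275 and 105 and Abca3 at 129 and 52.3. The median total of the 36 cells was 3923 adjusted counts against 2316, and doublets were not called. Without cells holding at least 3 markers of a second class, Sftpd was above 0 in 31 of 110 AT1-gated cells in CONV (28.2%), compared with 1 of 61 in CONV AsiDNA and 0 of 119 in FLASH. The 2 CONV AsiDNA cells with Sftpd held 167031 adjusted CPM of Scgb1a1, and 1 of them was also above 0 for Sftpb.

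**Figure D5:**
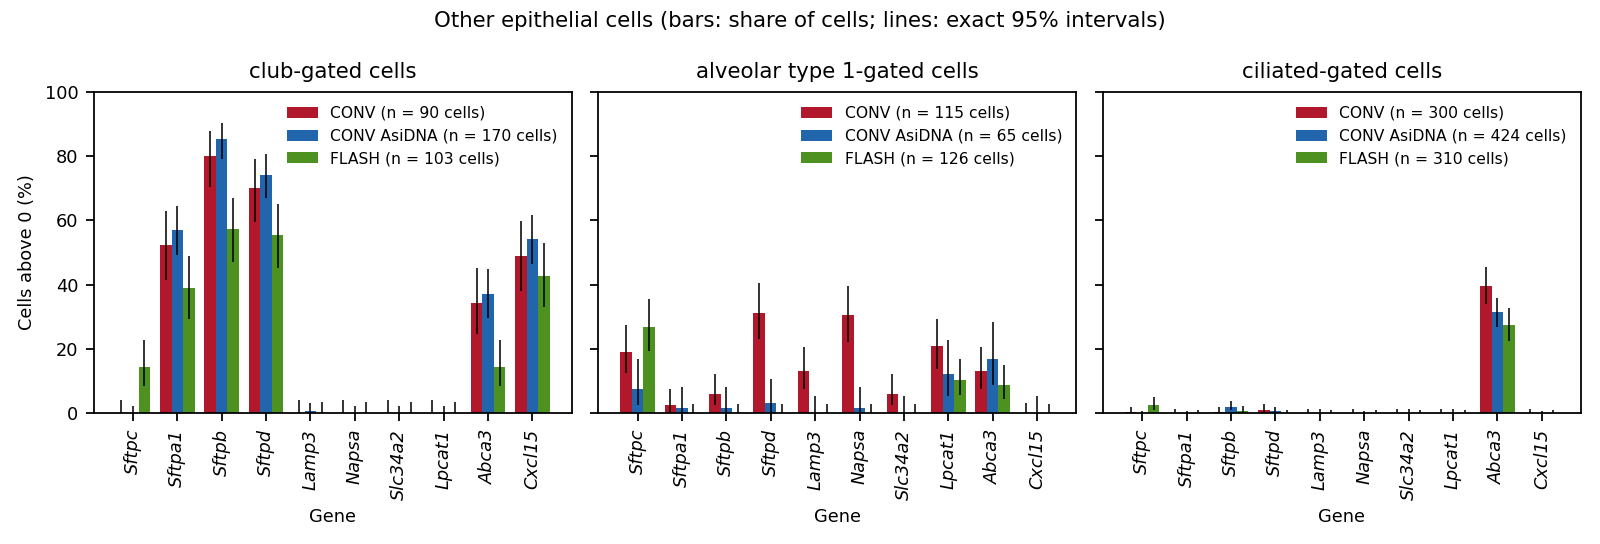
Share of club-, AT1- and ciliated-gated cells above 0 for each gene (bars, in %) by library, with exact 95% intervals (lines). Sftpb, Sftpd, Sftpa1, Cxcl15 and Abca3 are read in club cells, Sftpd and Napsa in AT1 cells of CONV (31.3% and 30.4%), and in ciliated cells Abca3 reaches 39.7% while the others stay at 2.58% or less.

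Outside the alveolar and club cells, Abca3 and Napsa were the genes read most widely. Abca3 was above 0 in 39.7% of ciliated cells in CONV (exact 95% interval 34.1 to 45.4), against 31.4% in CONV AsiDNA (27.0 to 36.0), while FLASH had 27.4% (22.5 to 32.7), at 111, 87.4 and 79.4 adjusted CPM. In endothelial cells it was above 0 in 11.5%, 11.0% and 3.10%, and in alveolar macrophages in 7.99%, 7.69% and 0.208%, with FLASH lowest in both. In monocytes it was above 0 in 4.08%, 13.8% and 6.41%, with CONV lowest. The part of the adjustment of counts in these values was not tested. In T cells it was above 0 in 0.430%, 0% and 0%. The ciliated cells had a median of 4485 to 4526 adjusted counts and the T cells of 3299 to 3559. After thinning to 1000 adjusted counts the expected share in ciliated cells was 10.5%, 8.37% and 7.21%, in the same order. Leaving out cells with at least 3 markers of a second class kept only 20, 24 and 16 ciliated cells, of which 7, 5 and 5 were above 0, and FLASH was then not the lowest library.

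Napsa was read in B cells, which present antigen and hold many lysosomal proteases. It was above 0 in 71.3% of 1342 B cells in CONV (exact 95% interval 68.8 to 73.7), compared with 63.0% of 1600 in CONV AsiDNA (60.6 to 65.4), while FLASH had 53.3% of 1161 (50.4 to 56.2). The level was 580, 528 and 408 adjusted CPM, and the intervals of the 3 libraries did not meet. Thinned to 1000 adjusted counts, the expected shares were 40.2%, 36.2% and 29.1%, in the same order. The median depth went the other way, with 2830, 2963.5 and 3045 adjusted counts per B cell. The part of the adjustment of counts in the order of the Napsa values was not tested.

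Napsa was also above 0 in 67.3%, 69.8% and 59.2% of dendritic cells and in 65.3%, 75.2% and 81.5% of monocytes. The monocyte gate held only 49 cells in CONV against 298 and 390. In T cells of all 3 libraries Napsa was listed at 0. In neutrophils it was above 0 in 21 of 266 cells in CONV and listed at 0 in CONV AsiDNA and FLASH. B cells held 32.7%, 29.5% and 16.7% of all adjusted counts of Napsa. Lamp3, which is also known as DC-LAMP from mature dendritic cells, was listed at 0 in the mature dendritic cells gated here (27, 60 and 31 cells).

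Genes with a like pattern over cell types were sought among those that are neither in the set nor gate markers. Over 54 points, 18 cell types in each of 3 libraries, Slc26a9, a chloride transporter, had the highest Pearson r with the mean profile of the set (0.97), at 141, 122 and 108 adjusted CPM in AT2 cells. Pla2g1b, a secreted phospholipase, also had 0.97, and Fasn, the fatty acid synthase, had 0.94 at 2361, 1688 and 1750 adjusted CPM. The other genes of the first 10 were 5033403H07Rik, Slc5a1, Gjb1, Kcnj15, Bpifb5, Krt23 and Rbpjl, with r between 0.94 and 0.95. Within the set Lamp3 (0.95) and Sftpa1 (0.94) were closest to the mean profile and Napsa (0.59) was farthest. The points share libraries and the profile rests on a single cell type, so that many AT2 genes score alike.

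Other genes of the surfactant pathway were taken from lists. Of 32 genes of surfactant lipid synthesis 30 were tested, of which 0 were higher and 2 lower in CONV AT2 cells than in both other libraries by 2-fold. Over all 8082 genes 2% were higher and 1.16% lower by that rule. Fabp5, a fatty acid carrier, was at 240 adjusted CPM in CONV, against 1978 in CONV AsiDNA and 2547 in FLASH, and was above 0 in 14.5%, 86.7% and 88.7% of AT2 cells. Bex2 and Ftl1 were also low or at 0 in CONV alone, and the part of the adjustment of counts in the Fabp5 values was not tested. Plin2, which coats lipid droplets, was at 38.3, 191 and 211. It was above 0 in 13.4%, 54.6% and 55.4% of AT2 cells, under the same limit.

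Scd1, a fatty acid desaturase, was the next lower at 8739, 13785 and 15801 adjusted CPM. Chpt1, which makes phosphatidylcholine, was higher in CONV at 237, 129 and 115, as were Prdx6, whose phospholipase activity recycles surfactant lipid, at 1008, 582 and 541, and Lpgat1 at 41.1, 19.8 and 17.5. Lipid genes thus lay on both sides, and the median log2 ratios of the list were 0.03 and 0.01, close to 0.

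Of 20 regulators of surfactant genes 18 were tested and 0 passed in either direction. The factor Foxa2 was at 76.5, 169 and 135 adjusted CPM, Gata6 at 83.6, 139 and 98.2 and Foxa1 at 46.8, 76.0 and 58.4, all lowest in CONV. Elf5 was at 86.5, 46.6 and 34.9 and Wwtr1 at 91.4, 51.1 and 45.3, both highest in CONV. Cebpb was at 14.9, 0 and 7.09, above 0 in only 2.41%, 0% and 1.31% of AT2 cells, and no order is read from it. Of 33 genes of processing, traffic and secretion 29 were tested, and 0 were higher. The 1 gene counted as lower, the lysosomal protease Ctsl, was listed at 0 in CONV, at 26.2 and 29.5 in the others, and is not read as a difference.

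Further genes of that list named by the rule were Rab27b (136, 186 and 187), a small GTPase of secretion, and Pgc (9.21, 28.7 and 12.6), a protease, which were lower in CONV. Vamp8, a membrane fusion protein, was higher at 990, 696 and 665, as were Copb1 (99.9, 63.9 and 52.4) and Itch (46.8, 20.4 and 24.6). All these values are adjusted CPM in AT2 cells in the order CONV, CONV AsiDNA and FLASH.

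Alveolar macrophages take up and break down spent surfactant, so 22 clearance genes were read in the alveolar macrophage gate. Of these 21 were tested, and 0 were higher and 1 lower in CONV by 2-fold, against 1.54% and 1.95% of 9473 genes. Abca1, which exports cholesterol, was the gene lower, at 107 adjusted CPM in CONV, compared with 274 in CONV AsiDNA and 268 in FLASH. Pparg, a regulator of lipid handling, was at 170, 330 and 337 and Tlr4 at 70.6, 141 and 131. Lipa, the lysosomal acid lipase, was at 1995, 1105 and 1251, Msr1, a scavenger receptor, at 235, 136 and 68.7, and Npc2, a lysosomal cholesterol carrier, at 459, 281 and 66.2.

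In AT2 cells, 15 of 20 genes of the transitional state that follows damage were tested, with 1 higher and 1 lower in CONV than in both other libraries by 2-fold, against 2% and 1.16% of the 8082 genes tested in AT2 cells. Clu, a secreted chaperone, was at 1227, 605 and 337 adjusted CPM, and Gdf15, a stress cytokine, at 19.1, 185 and 208. Gdf15 was above 0 in only 3.45%, 19.8% and 18.4% of AT2 cells, under the limit given for Fabp5. Areg, a growth factor, was at 113, 301 and 201, Sox4 at 42.5, 134 and 76.4, Krt19 at 17.0, 0 and 3.82 and Itgb6 at 31.9, 19.8 and 14.7. Of 16 immune mediators of AT2 cells 14 were tested, with 2 higher and 1 lower by the same rule and against the same shares. Lcn2, which binds bacterial siderophores, was at 13780, 5101 and 3813, and the acute phase gene Hp at 2159, 937 and 741.

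Lyz1, a lysozyme, was the mediator lower in CONV at 796, 4122 and 3969 adjusted CPM, and it was above 0 in only 2.76%, 17.3% and 17.3% of AT2 cells, under the limit given for Fabp5. Lyz2 was at 26233, 33732 and 36088, Il33 at 923, 1305 and 1252 and Il1r1 at 34.0, 12.1 and 13.6.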

How the data were processed

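Lung single-cell suspensions of 1 mouse each for CONV, CONV AsiDNA and FLASH had been encapsulated with 10x Genomics droplets. The submitters' processing notes name Cell Ranger 6.0.0 and mm10. The authors deposited, per library, for each gene and cell a natural log value, taken of a whole number after adding 1. The sources used here do not state whether or how the counts were adjusted before that. These values were converted back to whole numbers (largest gap 3.0e-11). Cells with at least 200 genes above 0 and at most 20% mitochondrial counts were kept, which removed 1, 2 and 0 cells. No doublet caller was run. Another 4 deposited tables, with 12 columns of per-sample values, hold gene identifiers of another organism beside comparisons made by the authors and were not used.

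Cells were gated with marker lists that hold none of the 10 genes. Sums per library and gate were scaled to adjusted CPM. Log2 ratios were taken on adjusted CPM plus 10, which understates changes of low genes, for genes with a sum of at least 20. Shares carry exact Clopper-Pearson 95% intervals. No p-value was computed, as there is 1 mouse per group and no count model suits adjusted values. The 10 genes, the lists and the alternatives were chosen with earlier results of these data known. Text names the 10 genes, the 3 list genes farthest above and below both other libraries in CONV by the smaller log2 ratio (fewer where a direction held fewer), and the 10 genes most like the set. Bex2, mt-Co3, Ftl1, Gm42418, Ager, Aqp5, Etv5, Lgi3, Spock2, Hopx, Igfbp2, Sfta2 and Scgb1a1 were chosen for mention after their values were known. Ratios were tested on simulated data. Alternatives changed the filters, the gate, the clustering, the prior, the minimum sum, the totals and the depth. Python 3.11.15, numpy 2.4.6, scipy 1.17.1, pandas 2.3.3 and scanpy 1.11.5 were used.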

Additional observations from a re-analysis of the deposited data

How the results depend on the processing

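The lower Cxcl15 level of CONV AT2 cells held under all 15 alternatives, with log2 ratios from -0.84 to -0.78 against CONV AsiDNA and from -0.90 to -0.77 against FLASH. Sftpd stayed above 0 at 0.10 to 0.47 and 0.41 to 0.58, and Lamp3 below 0 at -0.42 to -0.21 and -0.43 to -0.12. The lower end for Sftpd (0.10) came with mixed cells left out. The ratios of CONV for Sftpb and Slc34a2 over CONV AsiDNA and for Sftpa1, Slc34a2 and Abca3 over FLASH fell on both sides of 0. For CONV AsiDNA over FLASH, Sftpd ranged from -0.01 to 0.46, Sftpa1 from -0.03 to 0.25 and Napsa from -0.23 to 0.18. In each alternative 0 genes of the set were past 2-fold. With all cells that hold at least 3 markers of a second class left out, AT2 cells were 0.677%, 0.734% and 1.01% of CONV, CONV AsiDNA and FLASH, because 252, 280 and 320 AT2 cells also held at least 3 AT1 markers. With AT2 cells left out only for markers of a class other than AT1, an alternative added after the values were seen, CONV had 4.30%, CONV AsiDNA 4.30% and FLASH 5.46%. With the median gene ratio set to 0, the median log2 ratio of the set for CONV AsiDNA over FLASH was -0.11, which follows from the shift of all genes (0.09). In Leiden clusters in place of the gate, 288, 323 and 381 AT2 cells were shared with it. The marker gate and doublets limit shares in club and AT1 cells, and the unstated adjustment of counts limits the values of AT2 and all other cells, which the alternatives do not address. No paired analysis was possible because each group holds 1 library and the labels give no replicate numbers.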

Other observations

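Among immune, endothelial and mesenchymal cells a few single cells held several genes of the set. A FLASH alveolar macrophage held 406 adjusted counts of Sftpc, 52 of Sftpa1, 37 of Sftpb, 27 of Sftpd and 39 of Cxcl15, with 9 of the 10 genes above 0. In CONV AsiDNA, 2 interstitial macrophages held 94 and 62 adjusted counts of Sftpc with 6 and 8 of the genes above 0. CONV had 0 such cells, with at least 5 of the genes above 0, among 5360. The cause was not tested.

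Lpcat1 was above 0 in 18.5% of 27 mature dendritic cells in CONV and 28.3% of 60 in CONV AsiDNA, at 52.6 and 109 adjusted CPM, and was listed at 0 in the 31 of FLASH. Among dendritic cells the shares were 8.16%, 8.46% and 0%. Other FLASH classes, B and endothelial cells among them, also had Lpcat1 listed at 0, and the part of the adjustment of counts in this was not tested.

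In cells that no gate took, Sftpc was above 0 in 7 of 216 cells in CONV, 8 of 246 in CONV AsiDNA and 11 of 197 in FLASH, at 9.28, 733 and 108 adjusted CPM. The highest cell held 341 adjusted counts in CONV AsiDNA and 62 in FLASH, against 1 in CONV, so few cells carry these levels and no order is read from them.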
